A study of Homo sapiens with 6 samples.

Results

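Genes for the mitochondrial ribosome, the respiratory chain and the protein import translocases were examined on the deposited lists of genes with high and with low expression in SiHa cells. Members were chosen by symbol, as the listed genes whose names begin with MRPL or MRPS and a digit, NDUF, COX and a digit, UQCR, ATP5, SDHA to SDHD, TIMM, TOMM or MT-. The rule found 127 genes among the 8946 distinct symbols on the lists, of which 123 were listed as high and 4 as low, with none on both lists. Since list membership itself chose the members, the counts by list are a description and were given no test.

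SiHa is an established line from a squamous cell carcinoma of the cervix, and it was used at passages 18-23. The culture medium was DMEM containing 10% FCS. A transwell plate with 6 wells was used, in which cells pass through a porous membrane, and after 10 h the cells were scraped and pooled. TruSeq RNA libraries (kit v2) were made for 3 non-migrated and 3 migrated fractions, which share the line, the medium and the time and differ in whether the cells had crossed. The groups carry no genetic change or drug in the labels, and the sources do not say whether the 3 numbered sets were separate cultures.

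The oxidative phosphorylation system sits in the inner mitochondrial membrane. Complexes I and II pass electrons from NADH and succinate to coenzyme Q, complex III passes them to cytochrome c, complex IV reduces oxygen, and ATP synthase uses the resulting proton gradient. Most of the subunits are encoded in the nucleus, made in the cytosol and imported through the TOM complex of the outer membrane and the TIM complexes of the inner one. A small hydrophobic core is encoded by mitochondrial DNA and translated inside the organelle by the mitochondrial ribosome, whose proteins are all nuclear-encoded.

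The 6 libraries held 18226280 to 33466924 fragments assigned to 26006 loci. These loci carry assembly identifiers, which the files do not pair with gene names, so no member could be tied to a level or to a difference between migrated and non-migrated cells. The lists themselves hold positions and no expression values, and the sources state neither their threshold nor the libraries behind them. Of 12 markers chosen for epithelium and a carcinoma line, 5 were on the high list (KRT7, KRT8, KRT17, KRT18 and CDKN2A). KRT5 was on the low list, and KRT6A, KRT14, KRT19, EPCAM, CDH1 and TP63 were on neither. The high share was 41.7%, against 22.3% of RefSeq protein-coding genes, and these markers split too much to show a squamous identity. No marker of other tissues was high. The low list held 7 of 16 for striated muscle, 10 of 12 for testis germ cells, 5 of 8 for leukocytes and 2 of 11 for fibroblasts and endothelium. It held 18.9% of the 20052 RefSeq protein-coding genes. The count for fibroblasts and endothelium lies close to that share, so it does not set these markers apart from other genes. None of the marker counts was tested.

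Short elements read by known regulators of mitochondrial genes were looked for in the members' promoters, and sites for NRF1 in the respiratory chain and for YY1 in the ribosome are printed because each motif had its highest share there among the high-list groups. Each promoter window ran from 250 bases before to 50 bases after the first listed start in RefSeq (GRCh38.p14), and 99 of the 111 nuclear members on the high list had one. An exact GCGCATGCG, the core bound by the nuclear respiratory factor NRF1, was present in 8 respiratory chain members. Each is printed on the gene's strand, 5′ to 3′, with the motif in capitals. The motif is nearly a palindrome, so CGCATGCGC on the printed strand is the same core read on the other strand.
NDUFA8: tgttgccggatGCGCATGCGcaggcgccgt
NDUFB4: aagagcacttcGCGCATGCGcatatcaccg
NDUFS6: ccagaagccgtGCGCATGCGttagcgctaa
SDHD: cagctgtgtttGCGCATGCGcgacgggtgt
COX6A1: cggagggcacaCGCATGCGCacgaaggaaa
ATP5C1: ggggagcttcgGCGCATGCGcgctgaggcc
ATP5G2: ggcccgggtcaCGCATGCGCtgagccttcc
ATP5J: ccactcaaagaGCGCATGCGtacagagcaa

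The printed motif began before the annotated start in each of these 8 stretches, at offsets from -219 bases in COX6A1 to -4 bases in NDUFA8, where the motif and the stretch run across the start. In GRCh38.p14 the SDHD stretch is chr11:112086752-112086781 on the plus strand, and the ATP5C1 stretch is chr10:7788144-7788173 on the plus strand. NDUFA8, NDUFB4 and NDUFS6 belong to complex I, SDHD anchors complex II in the membrane, COX6A1 is a complex IV subunit, and the other 3 belong to ATP synthase.

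The AAGATGGC element, bound by YY1, was found in 12 mitochondrial ribosome members with MRP names. These sites are printed the same way, and GCCATCTT marks a site on the opposite strand.
MRPL20: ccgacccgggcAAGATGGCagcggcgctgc
MRPL32: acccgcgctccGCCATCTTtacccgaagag
MRPL36: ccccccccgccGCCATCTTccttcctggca
MRPL38: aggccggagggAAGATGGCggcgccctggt
MRPL42: aggattgaaacAAGATGGCgggttcgtggt
MRPL45: tttgcgggaacAAGATGGCagcccccatac
MRPL47: ggcaggatgtgGCCATCTTaagtgagggca
MRPL51: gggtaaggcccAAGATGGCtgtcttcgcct
MRPS7: cgtggccagccAAGATGGCtgcccccgcag
MRPS24: ccgcttggcccAAGATGGCggcctccgtgt
MRPS27: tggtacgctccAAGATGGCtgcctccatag
MRPS30: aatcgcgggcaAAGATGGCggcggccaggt

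Of these 12 sites, 9 read forward and 9 began after the annotated start, and 10 began within 50 bases of it. The forward element holds an ATG. MRPL20 (chr1:1407260-1407289, minus strand, GRCh38.p14) and MRPS7 (chr17:75261887-75261916, plus strand) show the common arrangement. MRPL32, MRPL36 and MRPL47 carry it on the opposite strand, before the start.

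All the proteins made from mitochondrial DNA were on the high list. Of the 13 mitochondrial protein genes, 12 appeared under their own names, and the remaining row on MT, named J01415.25, lay at positions 8366 to 8572 on the plus strand, which are those of MT-ATP8 in GENCODE 29. No mitochondrial gene was on the low list. The nuclear members on the high list numbered 111. For scale, 50.6% of all distinct listed symbols, 54.2% of the listed protein-coding genes and 22.3% of the 20052 RefSeq protein-coding genes were on the high list, and 18.9% of those genes were on the low list.

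The complex I genes on mitochondrial DNA, MT-ND1 to MT-ND6 with MT-ND4L, encode the membrane-embedded core that pumps protons. MT-ND1 lies at 3307 to 4262, MT-ND2 at 4470 to 5511, MT-ND3 at 10059 to 10404, MT-ND4 at 10760 to 12137 and MT-ND5 at 12337 to 14148, all on the plus strand of the hg19 mitochondrial sequence as the list gives it. MT-ND6, at 14149 to 14673, was the only one of the 13 on the minus strand, and it borders MT-ND5. MT-CYB, the complex III cytochrome b, lies at 14747 to 15887. The complex IV core genes are MT-CO1 (5904 to 7445), MT-CO2 (7586 to 8269) and MT-CO3 (9207 to 9990), and MT-ATP6 (8527 to 9207) encodes the proton channel subunit of ATP synthase.

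Neighbouring mitochondrial genes share bases. MT-ATP6 overlapped the J01415.25 row by 46 bp and MT-CO3 by 1 bp, and MT-ND4L overlapped MT-ND4 by 7 bp. They are also transcribed as long joint precursors, and separate counting of adjoining genes depends on how shared fragments were assigned; no source used here states this rule. The 2 mitochondrial rRNAs, MT-RNR1 and MT-RNR2, and the 22 mitochondrial tRNAs were on neither list. No listed symbol of any chromosome matched one of the 1875 rRNA, tRNA, snRNA and snoRNA genes of RefSeq. Only 8740 of the 8946 listed symbols matched a RefSeq gene, so genes of these classes under unmatched names would be missed.

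Complex II, III and IV were on the high list nearly whole, while complex I was not. Complex II, which also catalyses a step of the citric acid cycle, had all 4 genes there: the flavoprotein SDHA (chr5:218356-256815 in hg19), the iron-sulfur protein SDHB and the membrane anchors SDHC and SDHD. All 9 nuclear complex III genes were there, among them the Rieske iron-sulfur protein UQCRFS1, cytochrome c1 (CYC1) and the core proteins UQCRC1 and UQCRC2. In complex IV the count was 10 of 11 nuclear genes, COX4I1, COX5A, COX6A1, COX6B1, COX6C, COX7A2, COX7B, COX7C, COX8A and NDUFA4, and COX5B alone was on neither list.

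In complex I, 25 of 37 nuclear genes were on the high list and 12 were on neither. Among its nuclear core subunits, NDUFS1, NDUFS3, NDUFV1 and NDUFV2 were high, and NDUFS7 and NDUFS8, which hold iron-sulfur clusters near the quinone site, were on neither. NDUFV1 carries the flavin that accepts electrons from NADH, and NDUFS1 is the largest subunit. The accessory subunits split 20 high to 10 neither. The latter were NDUFA2, NDUFA3, NDUFA7, NDUFA12, NDUFB3, NDUFB5, NDUFB7, NDUFC1, NDUFS4 and NDUFV3. By name series the high counts were 9 of 13 for NDUFA, 8 of 11 for NDUFB, 1 of 2 for NDUFC, 5 of 8 for NDUFS and 2 of 3 for NDUFV. With the mitochondrial genes the complex reached 32 of 44.

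ATP synthase had 14 of 17 nuclear genes on the high list, and 16 of 19 with the mitochondrial ones. In the catalytic F1 head, ATP5A1, ATP5B, ATP5C1 and ATP5E (the alpha, beta, gamma and epsilon subunits) were high and ATP5D (delta) was on neither list. The 3 genes ATP5G1, ATP5G2 and ATP5G3, which encode the same mature subunit of the rotating c-ring, were all high. ATP5I and C14orf2, small subunits of the membrane part, were on neither. Over the 5 complexes, 62 of 78 nuclear subunits (79.5%) were high, 13 of 16 catalytic ones and 49 of 62 accessory ones (79.0%), and none was low.

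**Figure D1:**
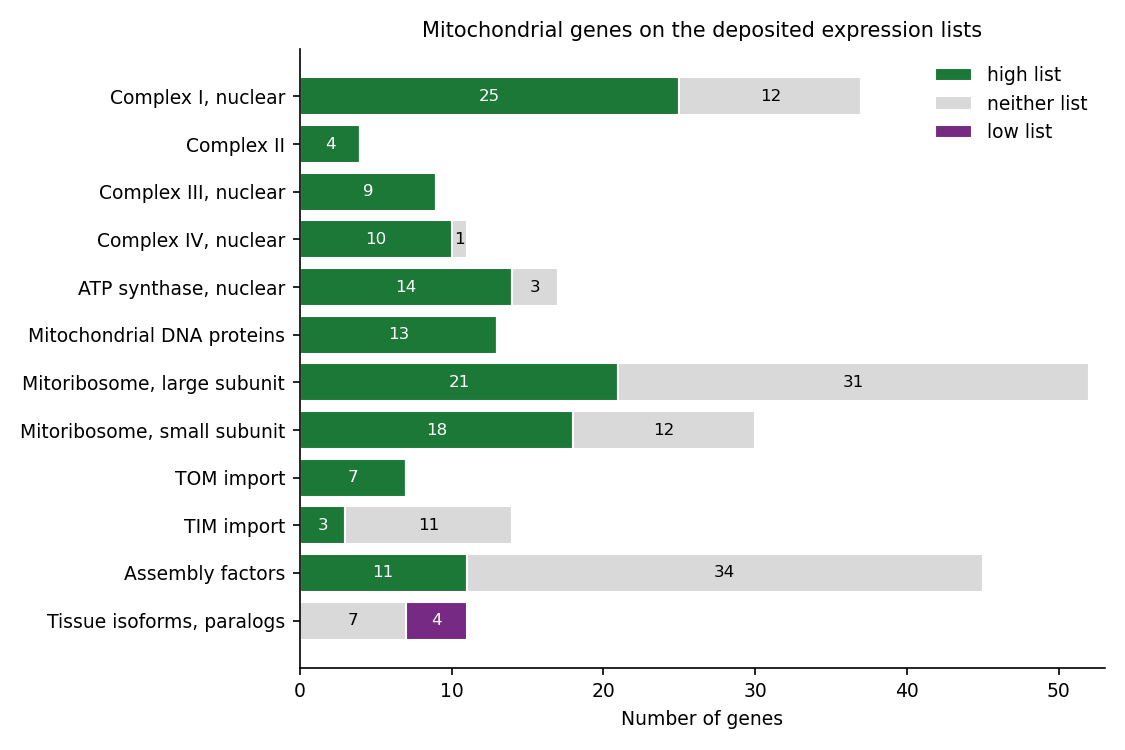
Number of genes (horizontal axis) of each complex or group on the high list, on the low list or on neither, as stacked bars with the count printed in each segment. Complexes II and III, the TOM complex and the proteins of mitochondrial DNA are wholly on the high list, and the low list appears only among the tissue isoforms and paralogs, with 4 genes.

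The mitochondrial ribosome was represented less fully. Of 82 ribosomal proteins, 39 (47.6%) were on the high list and 43 on neither. The large subunit had 21 of 52: MRPL3, MRPL4, MRPL9, MRPL16 to MRPL20, MRPL28, MRPL30, MRPL32, MRPL36, MRPL37, MRPL38, MRPL42, MRPL45, MRPL47, MRPL49, MRPL51, MRPS30 and GADD45GIP1. The small subunit had 18 of 30: MRPS2, MRPS5, MRPS6, MRPS7, MRPS9, MRPS11, MRPS15, MRPS16, MRPS21, MRPS22, MRPS24, MRPS25, MRPS27, MRPS34, MRPS35, DAP3, AURKAIP1 and PTCD3. Of these 39 genes, 35 have MRP names and thus count as members, and GADD45GIP1, DAP3, AURKAIP1 and PTCD3 do not match the naming rule.

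Among the large-subunit proteins on neither list were MRPL1, MRPL2, MRPL10 to MRPL15, MRPL21 to MRPL24, MRPL27, MRPL33, MRPL34, MRPL35, MRPL39, MRPL40, MRPL41, MRPL43, MRPL44, MRPL46, MRPL48, MRPL50, MRPL52 to MRPL55, MRP63, ICT1 and MRPS18A. ICT1 is a peptidyl-tRNA hydrolase built into the ribosome. The small-subunit proteins on neither list were MRPS10, MRPS12, MRPS14, MRPS17, MRPS18B, MRPS18C, MRPS23, MRPS26, MRPS28, MRPS31, MRPS33 and CHCHD1. The cytosolic ribosome, which translates nuclear messages, had 78 of 79 proteins (98.7%) on the high list, 47 of 47 for its large and 31 of 32 for its small subunit. The 2 ribosomes therefore differed in listed share, 47.6% against 98.7%.

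The import genes of the outer and inner membranes differed in listed share, and this was not tested. All 7 TOM genes were high: the pore TOMM40, the receptors TOMM20, TOMM22 and TOMM70A, and the small subunits TOMM5, TOMM6 and TOMM7. TOMM34, a cytosolic chaperone of import, was high as well. Of 14 TIM genes, TIMM17A, TIMM44 and TIMM50 were high. The TIM share, 21.4%, lies close to the 22.3% of RefSeq protein-coding genes on the high list, so it does not set these genes apart. TIMM23, which forms the presequence channel with TIMM17, was on neither list, as were TIMM17B, TIMM21 and the 8 genes of the carrier route, TIMM22, C19orf52, TIMM8A, TIMM8B, TIMM9, TIMM10, FXC1 and TIMM13.

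Assembly and regulatory factors, which help to build, join or control the complexes and were not counted as subunits, were on the high list in 11 of 45 cases (24.4%), against 79.5% of the subunits. Those high were C3orf1 (TIMMDC1), ACAD9 and ATP5SL for complex I, TTC19 and UQCC for complex III, COX11, COX15, FAM36A and SCO1 for complex IV, and ATPAF1 and ATPIF1 for ATP synthase. COX11 and SCO1 deliver copper, COX15 makes heme a and ATPIF1 inhibits ATP synthase. By complex the high counts were 3 of 15 for complex I, 0 of 4 for complex II, 2 of 5 for complex III, 4 of 16 for complex IV and 2 of 5 for ATP synthase. The background share of protein-coding genes, 22.3%, lies close to 24.4%. One member, COX4NB, matched the naming rule without being mitochondrial, since it encodes the ER membrane protein EMC8.

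The low list held 4 members, and each is the second copy of a gene whose common copy was high. COX7B2 (chr4:46736844-46911252, minus strand, hg19) and COX8C (chr14:93813537-93814702, plus strand) are testis isoforms of complex IV subunits. COX4I2 (chr20:30225691-30232809, plus strand) is the isoform of lung and of hypoxic cells. ATP5L2 (chr22:43035809-43036607, minus strand) is a paralog of the ATP synthase gene ATP5L. The copies on the high list were COX7B (chrX:77154935-77162870), COX8A (chr11:63742079-63744015), COX4I1 (chr16:85833290-85840608) and ATP5L (chr11:118271869-118302211).

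Of 11 tissue isoforms and paralogs, none was high, 4 were low and 7 were on neither list. For scale, the high list held 22.3% and the low list 18.9% of RefSeq protein-coding genes, and these small counts were not tested. The muscle isoforms COX6A2 and COX7A1, the testis isoform COX6B2, the hypoxia-induced NDUFA4L2 and the paralogs TOMM20L, TOMM40L and TIMM23B made up the 7. Their common counterparts COX6A1, COX7A2, COX6B1, NDUFA4, TOMM20 and TOMM40 were all high, and TIMM23 was on neither. UQCRHL, a retrocopy of the complex III gene UQCRH, was on neither while UQCRH was high. The whole ATP5L2 row, 799 bp, lay inside CYB5R3 on the same strand, and CYB5R3 was on the high list.

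The paired copies encode proteins of much the same length. In GENCODE 29, COX7B has 80 coding codons and COX7B2 has 81, COX8A has 69 and COX8C has 72, COX4I1 has 169 and COX4I2 has 171, and ATP5L has 103 and ATP5L2 has 100 in a single exon. Promoters are shown here for COX7B, COX7B2, COX8A and COX8C, and COX4I2 and ATP5L2 had no promoter window. Each line is the 250 bases before the start, on the gene's strand, 5′ to 3′, from RefSeq (GRCh38.p14), with exact matches to the searched motifs in capitals.
COX7B: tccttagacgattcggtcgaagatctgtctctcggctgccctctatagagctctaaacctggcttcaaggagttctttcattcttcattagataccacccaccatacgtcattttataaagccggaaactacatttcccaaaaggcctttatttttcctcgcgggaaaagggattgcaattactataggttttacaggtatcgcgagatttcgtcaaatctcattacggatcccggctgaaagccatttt
COX7B2: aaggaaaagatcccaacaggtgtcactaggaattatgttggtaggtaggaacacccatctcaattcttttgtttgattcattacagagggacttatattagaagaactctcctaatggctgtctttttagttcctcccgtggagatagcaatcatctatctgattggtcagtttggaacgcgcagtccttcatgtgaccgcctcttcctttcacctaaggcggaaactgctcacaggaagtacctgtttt
COX8A: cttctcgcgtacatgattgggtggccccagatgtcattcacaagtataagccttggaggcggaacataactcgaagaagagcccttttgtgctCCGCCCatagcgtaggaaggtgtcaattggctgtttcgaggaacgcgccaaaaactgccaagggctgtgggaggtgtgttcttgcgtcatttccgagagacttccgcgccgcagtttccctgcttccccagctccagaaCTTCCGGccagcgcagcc
COX8C: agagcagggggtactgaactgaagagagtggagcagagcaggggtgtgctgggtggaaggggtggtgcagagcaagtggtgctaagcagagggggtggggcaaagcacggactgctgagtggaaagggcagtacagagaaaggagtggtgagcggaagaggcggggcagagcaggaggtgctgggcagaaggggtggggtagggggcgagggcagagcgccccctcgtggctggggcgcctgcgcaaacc

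The COX7B and COX7B2 stretches had the same G and C content, 43.2%, while COX7B held 13 CpG dinucleotides and COX7B2 held 5. COX8A held 16 CpG at 56% G and C, and COX8C held 8 at 65.2%. COX8A carried 1 SP1 element (CCGCCC on this strand) and 1 ETS element (CTTCCGG), and the other 3 carried no exact match. In GRCh38.p14 they lie at chrX:77899218-77899467 for COX7B, chr4:46909246-46909495 for COX7B2, chr11:63974370-63974619 for COX8A and chr14:93346932-93347181 for COX8C. Over the full 300-base windows the ratio of observed to expected CpG was 0.979 for COX7B, 0.520 for COX7B2, 0.793 for COX8A and 0.383 for COX8C. Its median was 0.868 for nuclear members on the high list, 0.882 for all protein-coding genes of the high list and 0.302 for those of the low list, so the members' value lay close to that of the high list as a whole.

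Motif shares were compared over the same windows, on both strands. The motifs were GCGCATGCG for NRF1, CCGGAAG for ETS factors such as GABP, AAGATGGC for YY1, GGGCGG for SP1, TCAAGGTCA for ERRA and TGACGTCA for CREB. The end of the ETS motif and the start of the YY1 motif share 3 letters and can overlap, and an NRF1 match followed by C also reads on the other strand. Among 27305 gene promoters of RefSeq the shares were 2.10% for NRF1, 10.7% for ETS, 3.03% for YY1, 44.6% for SP1, 0.359% for ERRA and 1.98% for CREB.

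Among the 99 member promoters the NRF1 motif was present in 10 (10.1%), against 4.58% of the 3823 protein-coding promoters of the high list. ETS was present in 36 (36.4%) against 22.8%, and YY1 in 20 (20.2%) against 7.35%. SP1 went the other way, with 58 (58.6%) against 74.4%. Over all 15842 protein-coding promoters the shares were 2.76% for NRF1, 14.2% for ETS, 3.91% for YY1 and 58.5% for SP1. The members' SP1 share was thus close to that of protein-coding genes in general. At least 1 of NRF1, ETS and YY1 was present in 57 of the 99 (57.6%), in 31.3% of the high list and in 5.54% of the low list. ERRA matched 1 member, SDHD, and CREB matched 4. A match is a description of letters and says nothing of binding in these cells.

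The motif shares of the respiratory chain and the ribosome were not tested against each other. NRF1 was found in 8 of 51 respiratory promoters of the high list (15.7%) and in 1 of 39 ribosomal ones (2.56%), MRPL17. YY1 was found in 7 of the 51 (13.7%) and in 14 of the 39 (35.9%). The respiratory genes with YY1 were NDUFA6, NDUFA9, SDHB, UQCRC1, ATP5F1, ATP5J and ATP5O, and GADD45GIP1 and PTCD3 carried it beside the 12 printed ribosomal members. ETS was equally frequent, 17 of 51 and 13 of 39 (33.3% each). The CREB element occurred in 4 of the 51 respiratory promoters, NDUFA10, NDUFB2, SDHB and ATP5G1, and in 0 of the 39 ribosomal ones.

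The elements also occurred in genes on neither list. In the 35 ribosomal promoters of that kind ETS was found in 17 (48.6%, against 33.3% on the high list), YY1 in 8 (22.9%, against 35.9%) and NRF1 in 2 (5.71%, against 2.56%). In the 14 respiratory ones ETS was found in 3 (21.4%, against 33.3%), YY1 in 4 (28.6%, against 13.7%) and NRF1 in 2 (14.3%, against 15.7%). Among genes on neither list the YY1 share was thus higher in the respiratory chain than in the ribosome, the reverse of the order on the high list. None of these differences between listed and unlisted genes was tested, and the neither-list groups are small. The promoters of the 2 low-list members with a window, COX7B2 and COX8C, held none of the 6 motifs.

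**Figure D2:**
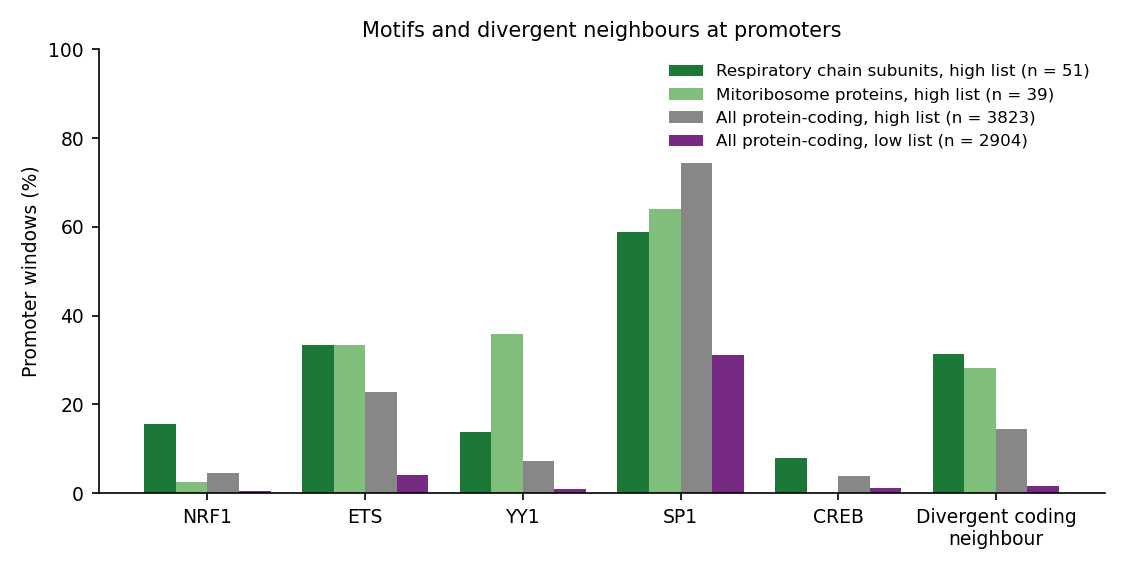
Percent of promoter windows (vertical axis) that hold an exact NRF1, ETS, YY1, SP1 or CREB motif or have a divergent coding neighbour. Bars show respiratory chain and mitochondrial ribosome subunits of the high list, beside all protein-coding genes of the high and low lists. The subunits include some genes that do not match the naming rule for members. The respiratory chain stands highest for NRF1 with 15.7% and the mitochondrial ribosome for YY1 with 35.9% among the high-list groups, above the 4.58% and 7.35% of the whole high list.

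The motifs also differed in place. All 20 YY1 matches were in different member genes, 15 began after the start and 17 within 50 bases of it, with a median offset of 14 bases after it. This position is not particular to the members, since 74.6% of the 291 YY1 sites on the high list as a whole were within 50 bases, with a median of 11. Offsets after the start in that wider set were counted a base lower than the members' offsets. The NRF1 matches all began before the start, and the NDUFA8 match ran across it. The 48 ETS matches lay in 36 genes with a median offset of -45 bases.

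**Figure D3:**
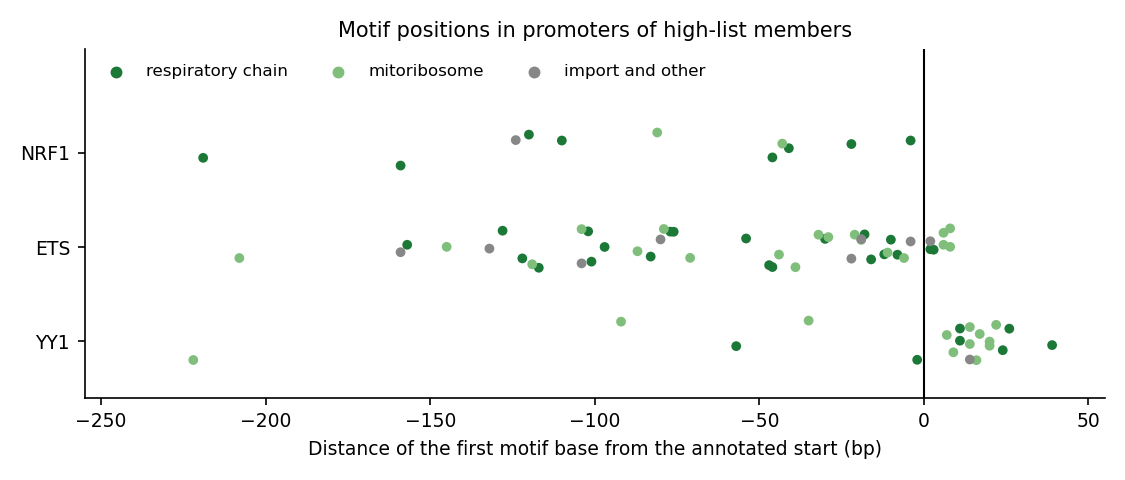
Distance in bp of each NRF1, ETS and YY1 match from the annotated start (vertical line at 0) in the promoters of nuclear members on the high list, with points coloured by respiratory chain, mitochondrial ribosome or other members and spread vertically only for legibility. Palindromic NRF1 matches are drawn once. YY1 points gather just after the start, 17 of 20 within 50 bases of it, and NRF1 points, drawn at the first base of the motif, lie before it.

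The members were short genes. The nuclear members on the high list spanned a median of 11916 bp in hg19 (interquartile range 5739.5 to 21907), against 33295 bp for the 4518 nuclear genes of the high list. The shortest was MRPS34 (1266 bp), and the longest was MRPS22 (351241 bp). The median was 7284.5 bp for the large and 15126 bp for the small ribosomal subunit, 8121 bp for complex IV, 15206 bp for complex I and 36954.5 bp for complex II. The 12 mitochondrial members named as such spanned 297 bp (MT-ND4L) to 1812 bp (MT-ND5). The wide MRPS22 row overlapped COPB2, a high-list gene, and PRR23A, PRR23B and PRR23C, which were on the low list.

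Their coding sequences were short as well. In GENCODE 29 the longest coding sequence of each gene had a median of 173 codons among the 111 nuclear members (interquartile range 126.5 to 297), with 5 exons, against 510 codons and 11 exons for protein-coding genes of the high list and 346 codons for the low list. ATP5E had the fewest codons (51), followed by UQCR11 (56), UQCR10 and COX7C (63 each), and NDUFS1 had the most (741). Genes on the high list tended to have longer coding sequences than those of the same system on neither list. The medians were 157.5 and 133 codons in the respiratory chain, 251 and 191 in the ribosome, 158 and 103 in the translocases, and 299 and 179.5 for assembly factors. The ranges overlapped in each system, and these differences were not tested.

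**Figure D4:**
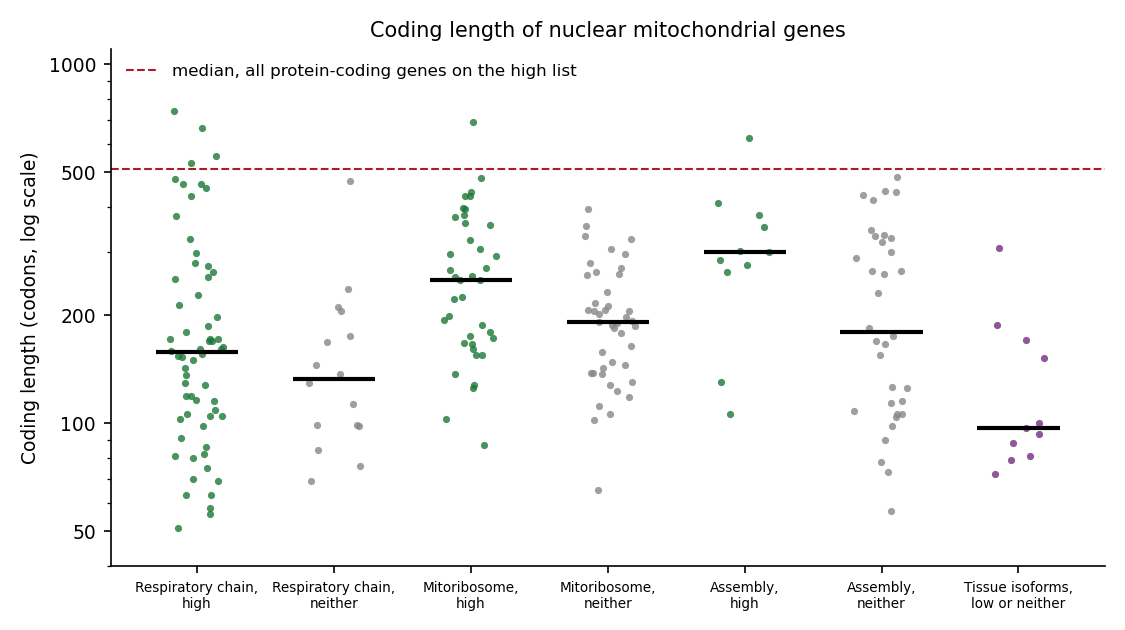
Coding length in codons (vertical axis, log scale) of each nuclear gene, 1 point a gene, by system and list, with black bars at the medians and a dashed line at the median of all protein-coding genes of the high list (510 codons). Nearly all points lie below the dashed line, and the medians are higher for high-list than for neither-list genes of the respiratory chain, the ribosome and the assembly factors.

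Processed copies are a known feature of these genes, and reads from a gene and from a near-identical copy cannot be told apart without the counting rule. Among the 111 nuclear members on the high list, 61 had at least 1 pseudogene named after them in GENCODE 29, of any pseudogene type. The share among other genes of the high list was not computed. COX6C had 17, NDUFA5 and NDUFB4 had 12 each and MRPS21 had 8. In the respiratory chain such a pseudogene existed for 42 of 62 subunits on the high list and 4 of 16 on neither list. In the ribosome it existed for 18 of 39 and 16 of 43. The part of these copies in list membership was not tested.

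Members were spread over the genome. Chromosome 1 held 13 of them, chromosome 19 held 10 (4.02% of its high-list genes) and chromosome 11 held 9. Chromosomes 4 and 13 held 0, with 110 and 55 high-list genes. Chromosome 21 held 3 of 61. One of these, ATP5J, overlapped GABPA, the DNA-binding subunit of the ETS factor GABP, by 1104 bp on the opposite strand, and GABPA was itself on the high list. MRPS6 shared 32690 bp with SLC5A3 and NDUFA13 shared 11978 bp with YJEFN3, on the same strand in both cases, so fragments of these genes may not be separable.

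Several members face another gene across a short gap. In hg19, 8 of the 111 nuclear members (7.21%) had a high-list neighbour on the opposite strand that started within 1000 bp upstream without overlap. The share was 4.38% of nuclear high-list genes. Pairs whose 5′ ends overlapped, such as NDUFS1 with EEF1B2 (19 bp) and MRPL32 with PSMA2 (24 bp), were left out of both counts. In 2 pairs both genes were members by name: MRPL36 and NDUFS6, with starts 34 bp apart, and COX4I1 and the non-mitochondrial COX4NB, 142 bp apart. SDHA lay 26 bp from CCDC127, UQCRH 23 bp from LRRC41 and NDUFB1 20 bp from CPSF2. The same rule with any protein-coding neighbour and the starts of RefSeq (GRCh38.p14) gave 27 of 99 (27.3%), against 14.4% of the high list. The partners were high in 12 cases, low in 1 and on neither list in 14. MRPL49 and FAU, which encodes a ribosomal protein of the cytosol, were 49 bp apart.

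The pathways around the respiratory chain were listed to different degrees. For scale, 22.3% of RefSeq protein-coding genes were on the high list. The citric acid cycle, which supplies NADH and succinate, had 13 of 14 genes on the high list, among them CS, IDH3A, IDH3B and IDH2, and IDH3G was on neither. The pyruvate dehydrogenase group had 4 of 13: PDHA1, PDHB, DLAT and PDHX, which encode subunits of the complex. Its low-list genes were PDHA2, the testis form, and PDK4, an inhibitory kinase. Of the genes for coenzyme Q and cytochrome c, 3 of 13 were high, namely COQ9, cytochrome c itself (CYCS) and its heme lyase HCCS. Their share, 23.1%, lies close to the 22.3% of all RefSeq protein-coding genes.

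With 22.3% of RefSeq protein-coding genes on the high list for scale, the machinery that keeps and reads mitochondrial DNA was listed in part. Of 14 genes for its maintenance and transcription 5 were high, including the polymerase POLG, the packaging factor TFAM and the single-strand binding protein SSBP1. Of 15 translation factors 6 were high, including TUFM, GFM1, GFM2 and LRPPRC, and of 19 tRNA synthetases 7 were. Import chaperones and peptidases had 7 of 17, among them HSPA9, HSPD1 and HSPE1, and the cristae-organising genes had 7 of 12, among them IMMT and OPA1. Of 8 carriers and porins 5 were high, SLC25A5, SLC25A3, VDAC1, VDAC2 and VDAC3. SLC25A31, the germline adenine nucleotide carrier, was low, SLC25A6 was on both lists and SLC25A4, the muscle form, was on neither.

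Among 12 known regulators of mitochondrial genes, GABPA, PPRC1, YY1 and CREB1 were on the high list and ESRRG, an orphan nuclear receptor, was on the low list. The high share was 33.3%, against 22.3% of RefSeq protein-coding genes. NRF1 and PPARGC1A, which encodes the coactivator PGC-1 alpha, were among the 7 on neither.

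**Figure D5:**
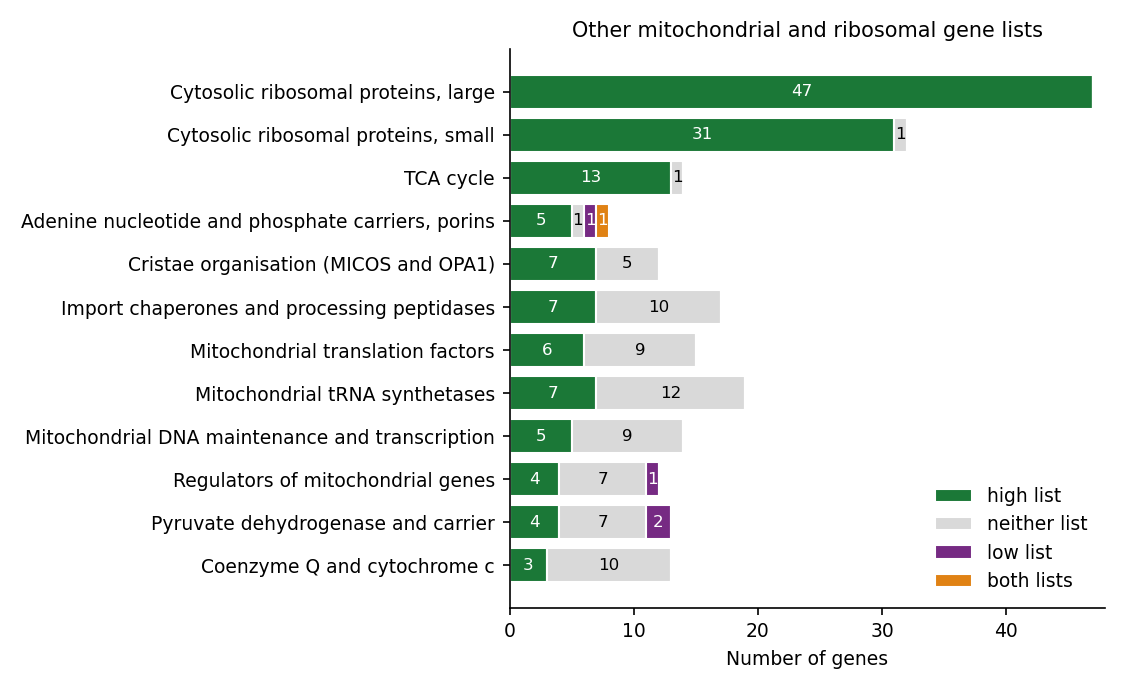
Number of genes (horizontal axis) of each mitochondrial pathway list, and of the cytosolic ribosome, on the high list, the low list or neither, as stacked bars. The citric acid cycle (13 of 14) and the cytosolic ribosome (78 of 79) are nearly whole on the high list, and the other lists are mixed.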

How the data were processed

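The deposited table holds 26006 loci by 6 libraries. Its estimated counts are unscaled fragments per locus, as the authors' Cuffdiff run assigned them per the file headers. Per the submitters' processing notes, Cufflinks 2.2.1 with Cuffdiff, TopHat2 and CASAVA 1.8.2 were used on build hg19. The estimated counts were used here only for depth, which was summed per library. Within a fraction the table's index was not matched to a numbered replicate.

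The high list (4531 symbols) and low list (4419 symbols, 4436 rows) give hg19 positions. Complexes, isoform pairs and pathways were written from textbook knowledge, with older and newer symbols, and the members and lists were chosen with earlier results of these data known. Named genes are the low-list and mitochondrially encoded members, the core subunits, both genes of each isoform pair, each complex's subunits on neither list and, of other pathways, low-list genes and up to 5 others. Further genes named from the pathway lists (carriers, regulators and others beyond that number), the genes printed with sequences, the motif carriers and those with extreme spans or lengths were chosen after their values were seen.

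Of the 127 members, 116 matched RefSeq by symbol, as did 8740 of 8946 listed symbols. Coding length and pseudogene names came from GENCODE 29 and promoters from RefSeq (both GRCh38), joined by gene identity. Only the 13 rows on MT were matched by position. Some genes are not reported here. Motif search was tested on simulated sequences. Python 3.11.15, pandas 2.3.3 and matplotlib 3.10.9 were used.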

Additional observations from a re-analysis of the deposited data

How the results depend on the processing

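Without values, the lists bound what can be said: presence on neither list is not a level, and no error, interval or size of difference could be given for a member. Over alternatives, the 123 high-list members numbered 123 without antisense, readthrough and pseudogene symbols, 123 as rows, 124 with the row at the position of MT-ATP8 (an alternative chosen after seeing the data) and 137 with every gene of the complexes counted. The 4 low-list members stayed 4 in number in each. The median span of high-list members was 10562 bp, and 11916 bp without the mitochondrial ones. Matching by first symbol only moved the count of a complex by at most 1 gene. So did matching by name pattern, where newer symbols of a gene were also tried. By listed names alone, as in the rule for members, the small ribosomal subunit had 15 genes in place of 18. Counting any listed start of a gene in place of the first, also chosen after seeing the data, gave YY1 in 38.5% of ribosomal promoters and NRF1 in 17.6% of respiratory ones. The planned edgeR fit of migrated against non-migrated cells, its alternatives with DESeq2 and without the low-count filter, and the fits leaving out each replicate were not run for the members, since the table names no genes. No paired analysis was possible because the results come from no test and the loci carry no gene names.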
